A study of Mus musculus with 6 samples.

Results

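The genes described here encode the ligands, receptors, Smad proteins and secreted inhibitors of TGF beta, BMP and activin signalling. Members were chosen by platform symbol, from the Bmp, Gdf, Inh, Tgfb, Tgfbr, Acvr, Bmpr and Smad families together with follistatin, follistatin-like, gremlin and noggin genes. For a gene with several probe sets the brightest on average over the 6 arrays was used, and this gave 49 members among 18193 genes with a single symbol on the array. Of the 49, 38 had a mean level at or above the detection filter of 4.88 log2 units and were tested, and 11 lay below it. Symbols were matched without a measured value, but the list was drawn up with earlier results of these data known, and Bmp3 was left out.

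Epididymal white fat, a visceral depot, was taken from male C57BL/6 mice aged 16 weeks that were randomly fed on chow. AFO mice, labelled Adiponectin-cre FTO flox/flox, carried floxed Fto and a Cre under control of the adiponectin gene, a gene of fat cells, so other cells of the depot are not its target. Control mice, labelled FTO flox/flox, carried no Cre, and both genotypes therefore share the floxed alleles. Each genotype was represented by 3 arrays of separate RNA pools, numbered as pools 1 to 3. The number of mice behind each RNA pool is not given in the sources used here, so the spread between arrays is that between pools. A difference within a pool, below, sets an AFO array against the control array of the same number. The labels state no animal or batch shared by equal numbers, so these are not known to be matched comparisons. All levels below are log2 values made by the authors with RMA, a quantile method that hides a change shared by most genes. With so few arrays, precision is limited throughout.

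Ligands of this family are secreted dimers that bring together type II and type I receptor kinases on the cell surface. The active type I receptor phosphorylates receptor Smads, Smad2 and Smad3 for TGF beta and activin and Smad1, Smad5 and Smad9 for BMPs, which then enter the nucleus with Smad4. Inhibitory Smads, follistatins, noggin and gremlins restrain the pathway. In fat, Bmp4 is known for committing precursor cells to the adipocyte lineage, TGF beta and activin A for holding back adipocyte differentiation, and the type I receptor ALK7, encoded by Acvr1c, for its high level in adipocytes, where it restrains lipolysis.

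Adipocyte markers were checked against the tissue label, and the log2 of the summed level of 10 such genes was 15.89 to 16.18 in AFO fat and 16.10 to 16.17 in control fat. Fto itself read 6.13, 5.45 and 5.95 in AFO pools 1, 2 and 3, against 6.11, 6.20 and 5.59 in the control pools, and the genotypes overlapped. The deleted exon is not given in the labels and the probe position was not compared with it, so these values do not check the genotype. In both genotypes pool 2 lay away from the other 4 arrays, with coordinates of 57.5 (AFO) and 37.2 (control) on a first principal component that held 67.6% of the variance, against -28.0 to -19.6 for the rest. Marker lists differed in the same arrays: the median gene was 3.49 log2 units lower in pool 2 than in pools 1 and 3 for mesothelial markers, and 3.70 higher for B cell, 1.60 higher for T and NK cell and 4.68 higher for skeletal muscle markers. In these bulk samples, fewer cells of a type and less RNA per cell cannot be told apart.

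No difference between AFO and control fat was called in any of the 38 tested members by limma without pairing. The count was 0 at an adjusted p of 0.05, beside 0% of all 13453 genes tested, and the smallest adjusted p among members was 0.999999. At an unadjusted p under 0.05 it was also 0, beside 1.03% of all genes. Differences ran from -0.30 for Acvr1c to 0.31 for Smad4, and none reached 0.5 log2 units in size, which 2.65% of all genes did. AFO minus control was positive in 17 members and negative in 21, where 54.3% of all genes were negative. The median member difference was -0.012, beside -0.014 over all genes.

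Precision differed widely between members. Half-widths of the unpaired 95% intervals had a median of 0.49, and the extreme bounds were -1.53 and 1.29, both for Bmp4. Differences of 0.5 log2 units therefore lay inside the interval of many members, and a p that misses the threshold does not show equal levels. Of 22 tested members with more than 1 probe set above the filter, 9 had probe sets of both signs. Tgfbr1 was the 1 member with its 3 AFO arrays on one side of the 3 control arrays, above them, beside 3.5% of all genes (2.03% with AFO above and 1.47% with AFO below). With pool number as a block, the count of members at an adjusted p of 0.05 was again 0 (0.0149% of all genes), and that at an unadjusted p under 0.05 was 1, Acvr1c (4.32% of all genes). AFO minus control had 1 sign in all 3 pools for 10 members, positive in 4 and negative in 6, which is 26.3% of the 38, beside 23.3% of all genes.

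**Figure D1:**
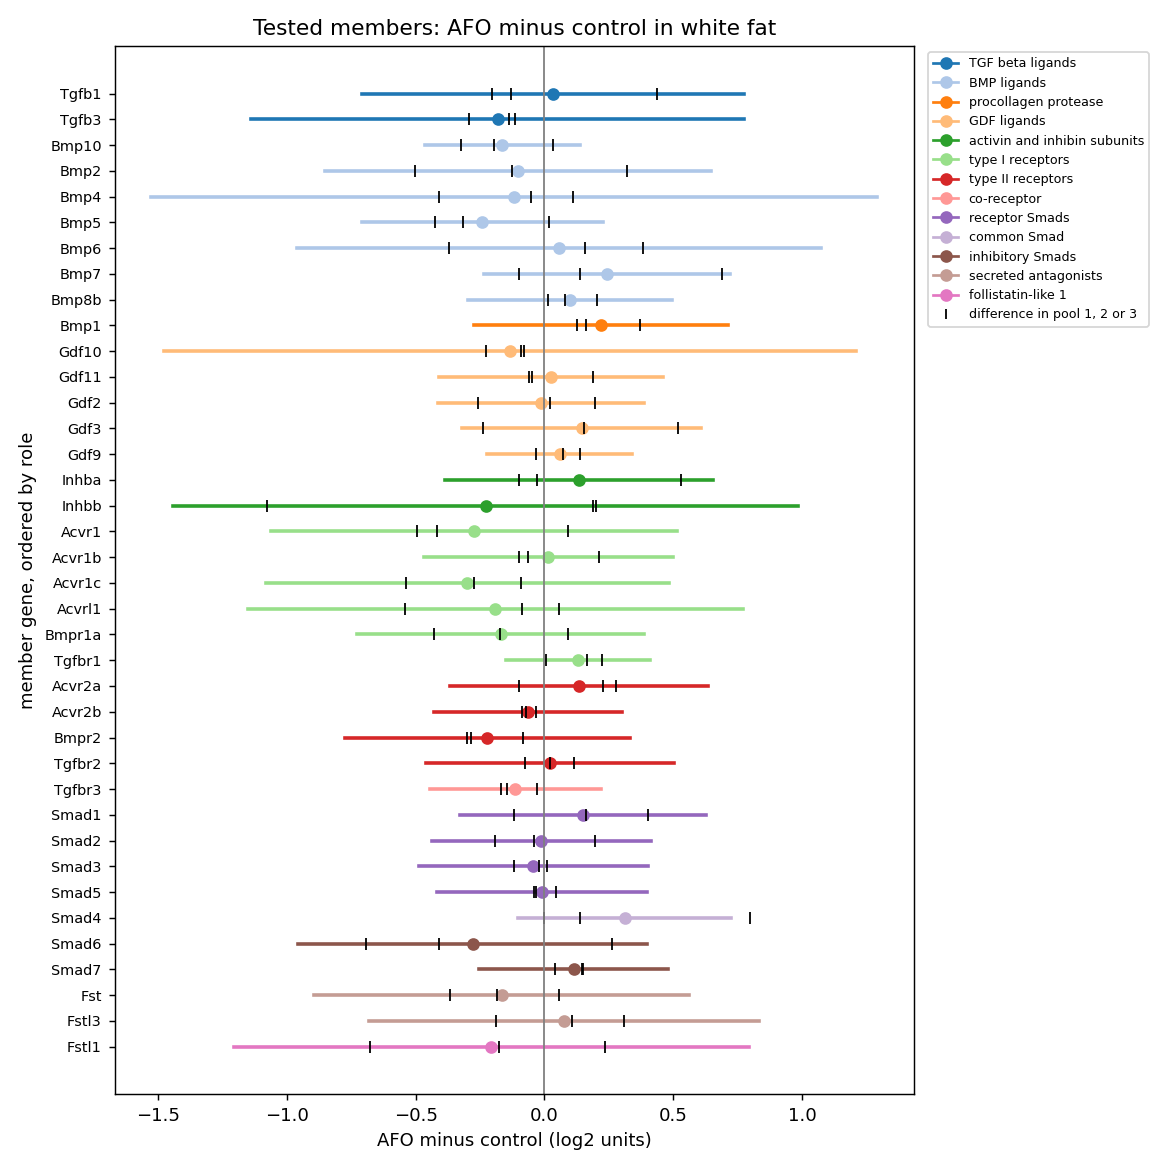
AFO minus control (log2 units, horizontal axis) for the 38 tested members, ordered and coloured by role; circles are mean differences of 3 AFO against 3 control arrays, bars are 95% limma intervals and black ticks are the differences within pools 1, 2 and 3. The intervals of all 38 include 0, and the mean differences lie between -0.30 and 0.31.

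The larger contrast among the members was between pools. In 22 of the 38 tested members (57.9%) both pool 2 arrays lay below the other 4 arrays, a place held by 31% of all genes, and in 4 they lay above (18.1% of all genes). The median of pool 2 minus the other pools was -0.38 over the members and -0.086 over all genes. Pool number is no condition of the design and was not tested as one. The widest gaps among tested members were -1.54 for Bmp4, -1.45 for Gdf10, -1.16 for Inhbb, -1.04 for Bmp6 and -1.03 for Tgfb3. In the same arrays the median mesothelial marker was 3.49 lower, the median endothelial marker 0.68 lower, the median smooth muscle and pericyte marker 0.84 lower and the median stromal progenitor marker 0.51 lower, while the median adipocyte marker was 0.12 lower. Their part in the members' gaps was not tested. Without AFO pool 2, which leaves pool 2 in control fat alone, AFO minus control turned positive for several members that were negative over 6 arrays. They included Bmp4 (0.47), Gdf10 (0.38), Tgfb3 (0.19) and Fst (0.12), and also others such as Inhbb and Smad6. Without that array the median difference moved from -0.012 to 0.065 over the members and from -0.014 to 0.021 over all genes.

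**Figure D2:**
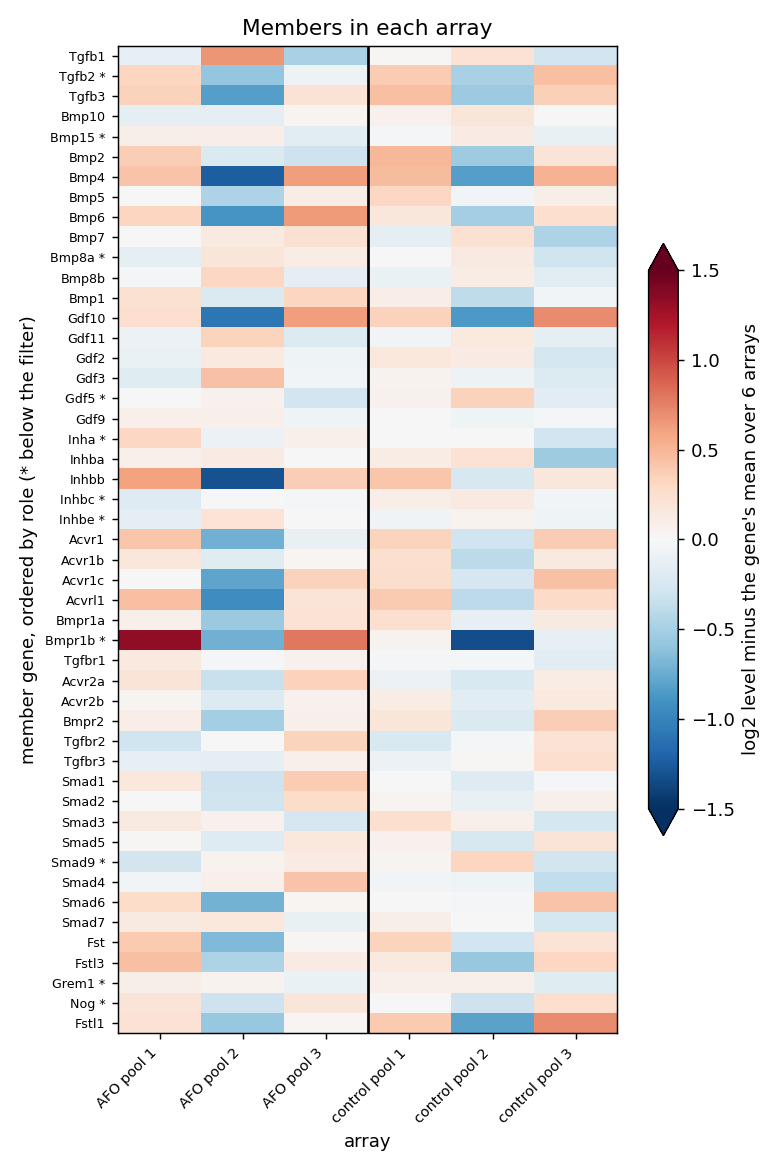
Level of each of the 49 members in each array minus the gene's own mean over the 6 arrays (colour, log2 units), with AFO arrays to the left of the line and control arrays to the right; an asterisk marks the 11 members below the filter. The AFO and control pool 2 columns are blue for most members, with Bmp4, Gdf10 and Inhbb among the deepest, and Tgfb1 is red there.

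The 250 bases before a listed start site are shown for Bmpr1b, the member with the largest genotype difference. They are also shown for Bmp4, Gdf10 and Inhbb, the tested members with the widest pool 2 gaps. They come from RefSeq on GRCm38.p6, at chr3:141982265-141982514 (minus strand, the outermost of 3 windows listed for the gene), chr14:46390670-46390919 (minus strand), chr14:33923337-33923586 (plus strand) and chr1:119422249-119422498 (minus strand), each written 5′ to 3′. The Bmpr1b window lies inside the annotated gene (chr3:141837135-142169585), so it precedes an internal start site and not the 5′ end of the gene. Capitals mark the Smad box CAGAC on either strand.
Bmpr1b: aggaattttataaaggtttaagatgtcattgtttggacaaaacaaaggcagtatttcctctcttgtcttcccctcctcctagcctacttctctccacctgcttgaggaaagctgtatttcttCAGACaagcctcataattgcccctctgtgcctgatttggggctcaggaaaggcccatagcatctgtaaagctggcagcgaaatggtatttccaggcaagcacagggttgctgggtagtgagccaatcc
Bmp4: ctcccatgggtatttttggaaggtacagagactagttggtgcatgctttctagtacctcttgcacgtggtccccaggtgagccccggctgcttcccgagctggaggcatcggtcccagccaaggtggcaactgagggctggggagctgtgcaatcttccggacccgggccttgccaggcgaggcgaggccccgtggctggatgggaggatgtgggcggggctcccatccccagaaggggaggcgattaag
Gdf10: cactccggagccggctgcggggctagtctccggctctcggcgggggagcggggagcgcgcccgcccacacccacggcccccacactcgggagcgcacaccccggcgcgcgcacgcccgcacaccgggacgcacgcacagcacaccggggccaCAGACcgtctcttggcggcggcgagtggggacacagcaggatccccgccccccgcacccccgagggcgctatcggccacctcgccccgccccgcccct
Inhbb: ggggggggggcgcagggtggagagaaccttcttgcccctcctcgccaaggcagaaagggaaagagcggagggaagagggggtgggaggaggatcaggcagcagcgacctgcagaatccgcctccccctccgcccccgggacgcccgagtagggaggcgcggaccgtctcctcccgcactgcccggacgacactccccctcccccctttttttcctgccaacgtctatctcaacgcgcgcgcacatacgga
The Bmpr1b and Gdf10 windows each hold 1 CAGAC, and those of Bmp4 and Inhbb hold 0. Of 41 listed windows of 35 members, 43.9% hold CAGAC or its reverse GTCTG, beside 42.2% of all 32851 windows. The GC-rich element GGCGCC, its own reverse, is in 14.6% of member windows and 9.59% of all windows. The palindrome GTCTAGAC is in 0 member windows and 0.167% of all. None of these motifs contains another, and a match is only a description of these letters.

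Among the TGF beta ligands, Tgfb3 (Entrez gene 21809) read 7.82, 6.64 and 7.69 in AFO pools 1, 2 and 3, against 7.93, 6.93 and 7.83 in control pools. It was lower in AFO fat within each pool, by less than the spread between pools, and differed by -0.18 (SE 0.40). Tgfb1, the isoform best known for fibrosis and immune restraint, is described after its values were seen. It read 7.07, 7.85 and 6.70 in AFO pools, against 7.20, 7.41 and 6.90 in control pools, a difference of 0.03 (SE 0.31). Unlike most members it had both pool 2 arrays above the rest in its brightest probe set. In a dimmer Tgfb1 probe set above the filter, control pool 2 (5.33) lay below control pool 1 (5.35). B and T cell markers were also high in pool 2, and the part of those cells was not tested. Tgfb2 lay below the filter, with AFO values of 5.16, 4.26 and 4.76 and control values of 5.23, 4.36 and 5.29.

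Bmp4 (Entrez gene 12159), the ligand of adipocyte commitment, read 7.24, 5.58 and 7.44 in AFO pools, against 7.29, 5.98 and 7.33 in control pools. The genotypes overlapped, both pool 2 arrays were more than 1 log2 unit below the others, and the difference was -0.12 (SE 0.59). Bmp6, a BMP that also controls iron balance through hepcidin in liver, read 8.29, 7.08 and 8.60 in AFO against 8.13, 7.45 and 8.21 in control fat. Its pool 2 arrays were also the lowest, less so in control fat, and the difference was 0.06 (SE 0.42).

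Bmp5 read 5.49, 5.03 and 5.60 in AFO pools, against 5.81, 5.45 and 5.59 in control pools. Its AFO value was below its control value in pools 1 and 2 and level with it in pool 3, and the difference was -0.24 (SE 0.19). Bmp7, which promotes brown fat development in mice, read 6.04, 6.17 and 6.27 in AFO against 5.90, 6.27 and 5.58 in control fat. Control pool 3 was the low array, and within that pool AFO was 0.69 higher, whereas the difference over all arrays was 0.24 (SE 0.20). Bmp10, a ligand made by the heart, was among the dimmer tested members, at 5.17, 5.15 and 5.34 in AFO and 5.36, 5.48 and 5.30 in control fat, a difference of -0.16 (SE 0.13). Bmp2 differed by -0.10 (SE 0.31), and Bmp8b, known for its part in thermogenesis, by 0.10 (SE 0.16). Bmp8a and the oocyte factor Bmp15 lay below the filter.

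Bmp1 bears the family name but encodes a protease that trims procollagens. Its AFO arrays read 8.10, 7.66 and 8.21 and its control arrays 7.98, 7.49 and 7.83. AFO was higher within each pool, by 0.12, 0.16 and 0.37, but the genotypes overlapped across pools, and the difference was 0.22 (SE 0.21). Its other 2 probe sets, both above the filter, ran the other way, at -0.17 and -0.21.

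Among the GDF ligands, Gdf10 (Entrez gene 14560), also called BMP3B, read 9.05, 7.71 and 9.42 in AFO pools and 9.14, 7.94 and 9.50 in control pools. Pool numbers set the order in both genotypes, AFO was lower by 0.09, 0.22 and 0.08 within pools 1, 2 and 3, and the difference was -0.13 (SE 0.56; -1.47 to 1.21 as 95% interval). Gdf3, a ligand of ALK7 in mouse fat, read 5.31, 5.94 and 5.45 in AFO against 5.55, 5.42 and 5.29 in control fat. AFO pool 2 was its high array, the genotypes overlapped, and the difference was 0.14 (SE 0.19). Gdf2 (BMP9), Gdf9 and Gdf11 differed by -0.01 (SE 0.17), 0.06 (SE 0.12) and 0.03 (SE 0.18), and Gdf5 lay below the filter.

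Activins are dimers of the beta subunits encoded by the Inhb genes. Inhbb, which encodes the activin B subunit and is abundant in fat cells, read 8.46, 6.55 and 8.23 in AFO pools, against 8.27, 7.62 and 8.03 in control pools. AFO was higher in pools 1 and 3 by 0.19 and 0.20 and lower in pool 2 by 1.07, so that 1 array, AFO pool 2, set the sign of the difference of -0.23 (SE 0.51). Without that array the mean difference was 0.37, and without both pool 2 arrays 0.19 (SE 0.18). A dimmer Inhbb probe set above the filter read 6.37, 6.08 and 6.19 in AFO against 6.40, 6.17 and 6.02 in control fat. Its difference was 0.01 and its control pool 2 array lay above control pool 3, so the wide pool 2 gap depended on the probe set read. Inhba, the activin A subunit, read 6.06, 6.09 and 5.97 in AFO against 6.09, 6.19 and 5.44 in control fat, with control pool 3 low and a difference of 0.13 (SE 0.22). Inha, Inhbc and Inhbe, of which Inhbe is a hepatokine subunit, lay below the filter, with differences of 0.20, -0.13 and 0.04.

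**Figure D3:**
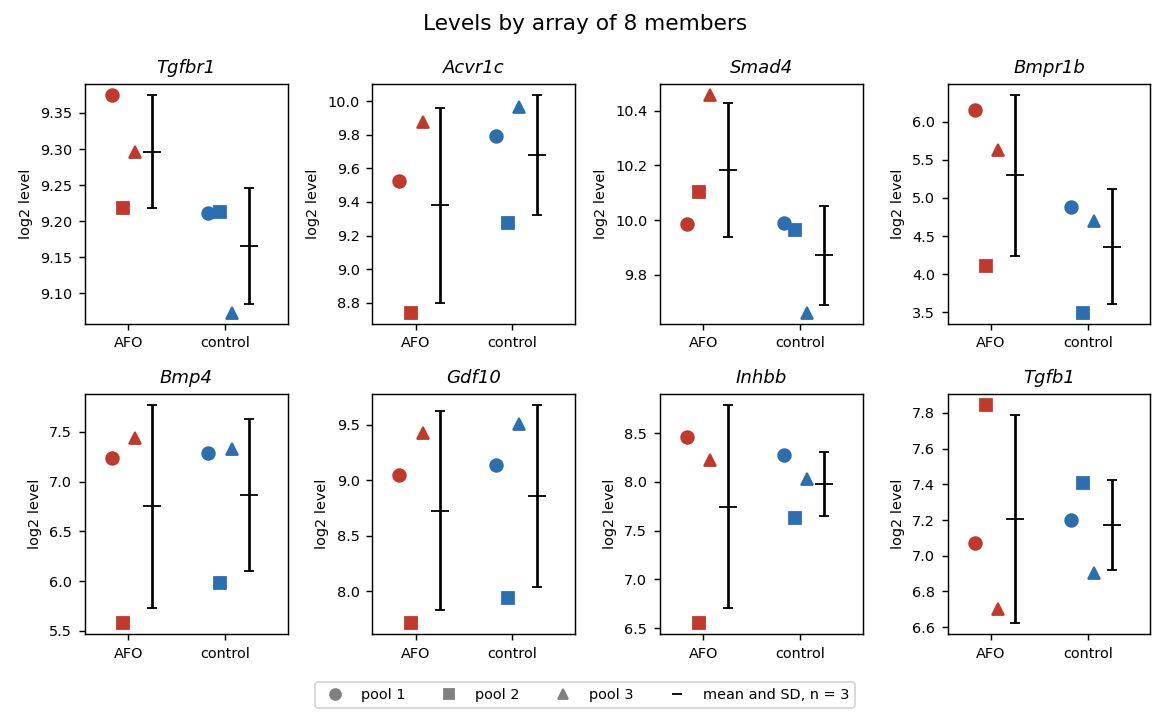
Log2 levels (vertical axes, each with its own range) of 8 members in AFO (red, left) and control (blue, right) arrays, with circles, squares and triangles for pools 1, 2 and 3 and black bars for mean and SD (n = 3). Of these 8, only Tgfbr1 has separate genotypes, with AFO pool 2 at 9.218 and the highest control array at 9.213; in Bmp4, Gdf10 and Inhbb the squares lie below the other symbols and in Tgfb1 above.

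Tgfbr1 (Entrez gene 21812), the type I receptor for TGF beta, was the member whose genotypes did not overlap. It read 9.376, 9.218 and 9.296 in AFO pools, against 9.211, 9.213 and 9.073 in control pools. The gap between the lowest AFO and the highest control array was very small, and the difference of 0.13 (SE 0.12, limma adjusted p 0.999999) was no larger than its interval of -0.15 to 0.41. Another Tgfbr1 probe set above the filter differed by -0.18, with overlapping genotypes.

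Acvr1c (Entrez gene 269275), the ALK7 gene of adipocytes, read 9.52, 8.74 and 9.88 in AFO pools, against 9.80, 9.28 and 9.97 in control pools. It is described at length after its values were seen. AFO was lower within every pool, by 0.27, 0.54 and 0.09, while the groups overlapped across pools. The difference was -0.30 (SE 0.33, limma adjusted p 0.999999), with a 95% interval from -1.08 to 0.48. With pool number as a block its unadjusted p was 0.0439 and its adjusted p 0.990. That p depended on pool 2. Without both pool 2 arrays the Acvr1c difference was -0.18 (SE 0.18), with a limma unadjusted p of 0.345, and of 0.250 with the block as well. Its other 2 probe sets differed by -0.45 and -0.11, in the same direction. The adipocyte marker list, all 10 genes of which were lower in AFO fat with 0 passing limma, had medians of -0.01, -0.37 and -0.23 within pools 1, 2 and 3; its part in the Acvr1c values was not tested.

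The other type I receptors overlapped as well. Acvr1 (ALK2) differed by -0.27 (SE 0.33), Acvr1b (ALK4), which carries activin signals, by 0.02 (SE 0.20), and Acvrl1 (ALK1), the receptor of blood vessels, by -0.19 (SE 0.40). Bmpr1a, the BMP receptor ALK3, differed by -0.17 (SE 0.23). All 4 had both pool 2 arrays below the others, with the gap largest for Acvrl1 at -0.99, and the endothelial markers were lower in the same arrays.

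Bmpr1b (Entrez gene 12167), the BMP receptor ALK6, singled out after its values were seen, had the largest genotype difference of the 49 members, although its mean of 4.83 lay just below the filter. It read 6.15, 4.11 and 5.62 in AFO pools, against 4.88, 3.49 and 4.70 in control pools. AFO was higher within each pool, by 1.27, 0.62 and 0.93, but AFO pool 2 lay below control pools 1 and 3. In the fit without a filter the difference was 0.94 (SE 0.59, 95% interval -0.47 to 2.34) with a limma adjusted p of 0.999979, and with pool number as a block the SE was 0.16, the unadjusted p 0.00118 and the adjusted p 0.993. Without both pool 2 arrays, a fit without a filter gave 1.10 (SE 0.22) with a limma adjusted p of 0.0828 (0.89% of 18193 genes called), and with the block as well 0.00841 (1.8% of genes called). That last setting, with 2 arrays in each genotype, was chosen after the data were seen and was the only one of the settings run for Bmpr1b in which it passed.

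The other 2 Bmpr1b probe sets, both further below the filter, differed by 0.28 and 0.17, and the mean of the 3 differed by 0.47. Epithelial markers moved with it in part. Of 8 tested epithelial markers 7 were higher in AFO fat, and the log2 of their summed level was 10.63, 8.68 and 10.31 in AFO pools, against 9.18, 9.51 and 8.88 in control pools. They were thus high in AFO pools 1 and 3, like Bmpr1b, and not in AFO pool 2, where Bmpr1b was 0.62 above control. Of 3 tested epididymal epithelium markers 2 were higher in AFO, and their summed level was 9.48, 6.59 and 6.31 in AFO against 6.37, 6.66 and 6.28 in control pools. Mesothelial markers had summed levels of 11.32, 7.88 and 11.38 in AFO and 11.29, 9.18 and 11.27 in control pools, lowest in pool 2 where Bmpr1b was lowest, and with 1 of 8 higher in AFO. The part of these cells in the Bmpr1b values was not tested.

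**Figure D4:**
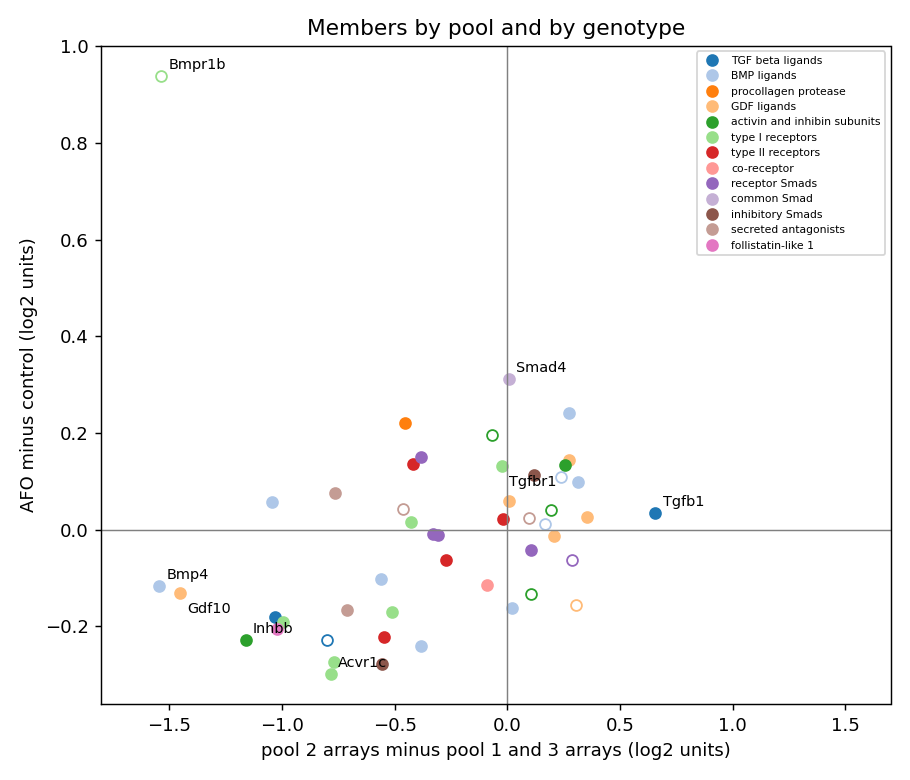
Each of the 49 members by its pool 2 minus other pools difference (horizontal axis) and its AFO minus control difference (vertical axis), both in log2 units; filled circles are the 38 tested members and open circles the 11 below the filter. Tested members spread from -1.54 to 0.66 along the pool axis and from -0.30 to 0.31 along the genotype axis, and Bmpr1b stands alone at 0.94 on the genotype axis.

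Type II receptors bind the ligand first and activate the type I partner. Bmpr2, the BMP type II receptor, read 10.12, 9.51 and 10.10 in AFO pools, against 10.21, 9.81 and 10.39 in control pools. It was lower in AFO within each pool, by 0.08, 0.30 and 0.28, with overlapping groups and a difference of -0.22 (SE 0.23). Tgfbr2 and the activin receptors Acvr2a and Acvr2b differed by 0.02 (SE 0.20), 0.14 (SE 0.21) and -0.06 (SE 0.15). Tgfbr3, the co-receptor betaglycan that presents TGF beta 2 and binds inhibin, read 10.44, 10.43 and 10.64 in AFO against 10.47, 10.58 and 10.81 in control fat. Each AFO array was slightly below the control array of its pool, and the difference was -0.11 (SE 0.14).

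Smad4 (Entrez gene 17128), the partner of all receptor Smads, had the smallest unadjusted p of the tested members, 0.116 by limma. It read 9.99, 10.10 and 10.46 in AFO pools, against 9.99, 9.96 and 9.66 in control pools. The groups overlapped by the pool 1 arrays, which were level, and the difference of 0.31 (SE 0.17, 95% interval -0.10 to 0.72) came mostly from pool 3, at 0.80. Its other 2 probe sets differed by -0.10 and -0.01, so the direction depended on the probe set read.

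Smad1, a receptor Smad of BMP signalling, read 8.70, 8.22 and 8.91 in AFO against 8.53, 8.34 and 8.51 in control fat, with overlap and a difference of 0.15 (SE 0.20). Its other 2 probe sets differed by -0.06 and -0.22, so here too the direction depended on the probe set read. Smad5, its close relative, differed by -0.01 (SE 0.17), and the TGF beta and activin Smads, Smad2 and Smad3, by -0.01 (SE 0.18) and -0.04 (SE 0.19). The 95% intervals of these 3, each from its brightest probe set, lay within -0.49 to 0.41. Dimmer probe sets differed by -0.36 and -0.03 for Smad5 and by -0.07 and -0.19 for Smad3, with overlapping genotypes. A dimmer Smad2 probe set did have separate genotypes, at 6.42, 6.25 and 6.11 in AFO against 6.66, 6.55 and 6.65 in control fat (difference -0.36), with a limma unadjusted p of 0.0442 and an adjusted p of 0.999956 when all probe sets were tested singly; it was picked after its values were seen. Smad9 lay below the filter.

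The inhibitory Smads, which are also targets of the pathway, did not pass either. Smad6, the inhibitor of BMP signalling, read 7.17, 6.18 and 6.92 in AFO against 6.91, 6.87 and 7.33 in control fat. AFO pool 2 was its low array, and its difference was -0.28 (SE 0.28), but 0.0087 without that array and -0.073 (SE 0.20) without both pool 2 arrays. Smad7, which blocks the TGF beta receptor, was higher in AFO within each pool by 0.04, 0.15 and 0.15, and differed by 0.11 (SE 0.15).

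Of the secreted inhibitors, Fst, the follistatin that binds activins, read 7.60, 6.55 and 7.22 in AFO pools, against 7.54, 6.92 and 7.41 in control pools. Both pool 2 arrays were low, the genotypes overlapped, and the difference was -0.17 (SE 0.30). Fstl3, a follistatin relative, differed by 0.08 (SE 0.32), and the BMP inhibitors Nog and Grem1 lay below the filter at 0.04 and 0.02. Fstl1, a secreted glycoprotein of mesenchymal cells, read 10.28, 9.50 and 10.09 in AFO against 10.46, 9.26 and 10.77 in control fat. It was lower in AFO in pools 1 and 3 and higher in pool 2, with a difference of -0.21 (SE 0.42), and without both pool 2 arrays of -0.43 (SE 0.18, unadjusted p 0.0408 and adjusted p 0.946 by limma). A second bright Fstl1 probe set read 10.18, 9.01 and 9.97 in AFO against 10.15, 8.85 and 10.10 in control fat, a difference of 0.02, so the lower AFO level rests on the first probe set. Of the 11 members below the filter 10 differed by -0.23 to 0.20, Bmpr1b being the exception.

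Pool 2 had a large share in the spread, so the comparison was repeated without it. Over the 4 arrays of pools 1 and 3, 0 of 38 members passed an adjusted p of 0.05, beside 0.676% of all genes, and with pool number as a block again 0, beside 2.01%. Groups of 2 did not overlap in 10 members, 6 higher in AFO (Acvr2a, Bmp1, Bmp6, Bmp7, Smad1 and Tgfbr1) and 4 lower (Acvr2b, Bmpr2, Fstl1 and Tgfb3), which is 26.3% beside 29.4% of all genes. At an unadjusted p under 0.05 there was 1 member (4.98% of all genes), and with the block there were 2 (7.74%).

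Genes of the wider pathway were read in 6 lists of receptors, matrix and latency proteins, inhibitors, regulators and targets; the member Smad6 is also a BMP target there and is counted in both places. Of 88 listed genes 73 were tested, 28 positive and 45 negative in AFO minus control, with a median of -0.039, and 0 passed by limma either without pairing or with the block. Without pairing 1 had an unadjusted p under 0.05, beside 1.03% of all genes, and 2 had non-overlapping groups, beside 3.5%, so neither count stood out. The first was Tgif1, a nuclear corepressor of Smad2, at 6.60, 6.50 and 6.27 in AFO against 5.78, 6.12 and 6.00 in control fat, a difference of 0.49 (SE 0.16, limma unadjusted p 0.0188, adjusted p 0.999999). The other was Col1a1, the collagen chain raised by TGF beta in fibroblasts, at 10.91, 10.74 and 11.41 in AFO against 10.71, 10.07 and 10.61 in control fat, a difference of 0.56 (SE 0.24, limma adjusted p 0.999999). In both genes the 3 AFO arrays lay above the control arrays.

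Of 16 tested TGF beta target genes 6 were positive and 10 negative, with a median of -0.06 and 0 passing. Col1a2, the partner chain of Col1a1, differed by 0.22 (SE 0.15), and the smooth muscle gene Tagln by -0.31 (SE 0.32). Of 9 tested BMP target genes 2 were positive and 7 negative, with a median of -0.09 and 0 passing. Id1, an early BMP target, read 8.85, 7.98 and 8.40 in AFO against 8.97, 8.32 and 8.98 in control fat. It was lower in AFO within each pool, with overlap across pools and a difference of -0.35 (SE 0.28). Hey1 and Msx1 differed by -0.27 (SE 0.20) and 0.16 (SE 0.13). Endothelial markers were lower in all 10 tested, with medians of -0.11, -0.21 and -0.29 within pools 1, 2 and 3 and summed levels of 11.49 to 12.22 in AFO and 11.70 to 12.43 in control fat; their part was not tested.

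Among 8 tested ligands and receptors outside the members 2 were positive. Amh, the anti-Müllerian hormone, differed by -0.22 (SE 0.14) and the endothelial co-receptor Eng by -0.29 (SE 0.31). Hjv, a BMP co-receptor of liver and skeletal muscle, read 5.42, 7.06 and 4.10 in AFO against 4.40, 5.05 and 4.22 in control fat, a difference of 0.97 (SE 0.71). The 9 tested skeletal muscle markers were all higher in AFO with 0 passing, and the log2 of their summed level was 13.06, 15.24 and 8.87 in AFO against 9.63, 12.96 and 8.21 in control fat. Both were highest in AFO pool 2, then AFO pool 1 and control pool 2; the part of muscle was not tested.

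Of 11 tested latency and matrix genes 4 were positive, with a median of -0.05 and 0 passing. Itgav, an integrin chain that releases latent TGF beta, differed by 0.16 (SE 0.22), and the latent TGF beta binding proteins Ltbp1 and Ltbp3 by -0.30 (SE 0.46) and -0.16 (SE 0.34). Of 14 further inhibitors 8 were positive, with a median of 0.03. Crim1, a membrane protein that binds BMPs, read 8.76, 7.92 and 7.92 in AFO against 9.17, 8.10 and 9.04 in control fat, a difference of -0.57 (SE 0.36). Without both pool 2 arrays it differed by -0.76 (SE 0.26, limma adjusted p 0.711), and with the block as well it passed (SE 0.18, limma adjusted p 0.0263), 1 pathway gene beside 2.01% of all genes. The secreted inhibitors Vwc2 and Dand5 differed by -0.16 (SE 0.17) and 0.13 (SE 0.15). Of 18 regulators inside the cell 8 were positive, with a median of -0.03, and after Tgif1 the smallest p values belonged to Fkbp1a, the FK506-binding partner of type I receptors, at -0.17 (SE 0.17) and the coactivator Crebbp at -0.13 (SE 0.13).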

How the data were processed

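Total RNA of 6 epididymal fat pools was labelled with a 3' in vitro transcription kit and hybridised to Affymetrix arrays, per the labels' protocols. The authors summarised the arrays as log2 levels with RMA in Affymetrix Expression Console 1.4, per the submitters' processing notes. This method compresses dim signals, which can shrink their differences. The genome build behind the probe sets is not given in the sources used here.

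Probe sets with 1 symbol in the platform annotation (34945 of 45101; 932 had several, 9160 were not listed and 64 were controls) were kept at a mean of at least 4.88, the 40th percentile, and each gene was read from its brightest one, which gave 13453 genes. The genotypes were set against each other with limma 3.58.1 (R 4.3.3; empirical Bayes with a trend, unpaired), with Benjamini-Hochberg adjustment over all genes and calls at an adjusted p under 0.05. The fit was tested on simulated data with independent noise in each array and no shift shared by pool 2. It recovered 58% of changes of 1 log2 unit and 88% of changes of 2, with 13 unchanged genes called. Changes under 1 log2 unit were not simulated. The members and lists were chosen with earlier results of these data known. Arrays are separate pools, so the p-values set a genotype difference against the spread between pools.

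Both genotypes carry pool numbers 1 to 3. Across genes, the departures of arrays from their genotype's mean had correlations of 0.594, 0.799 and 0.589 between equal numbers. All exceeded the 0.1 set by the rule for pairing, but AFO 3 with control 1 (0.441) and AFO 1 with control 3 (0.362) did so too. Pool 2 lay apart in both genotypes, so these correlations cannot show that arrays 1 and 3 are matched by number. The blocked fit is given where it bears on a call. Alternatives covered the filter, scaling, choice of probe set, variance model, array weights, the block, each array left out, pool 2 left out and the threshold. Every member is named with its difference or as below the filter. Values by array are given for members with non-overlapping groups, the 8 with the smallest p, the 5 with the widest pool 2 gaps and the smallest p of each role, and 3 genes are named per pathway list.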

Additional observations from a re-analysis of the deposited data

How the results depend on the processing

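Members called stayed at 0 in all 19 alternatives, though Bmpr1b passed in the added fit without a filter, without pool 2 and with the block, and their smallest adjusted p was 0.343, for Fstl1 without both pool 2 arrays and with pool number as a replicate block. With that replicate block over all arrays 2 genes passed in all, without both pool 2 arrays 91, with both changes 270, and with each array left out in turn 0 to 27, the 27 without AFO pool 2. The count of members with non-overlapping groups was 0 after quantile normalisation (4.03% of all genes), 2 when probe sets were averaged per gene (3.37%), 10 without both pool 2 arrays with or without the block (29.4%), and 2 to 6 with 1 array left out (6.85% to 17.8%), where fewer arrays can overlap. The median member difference was -0.088 with probe sets averaged, -0.077 with array weights, whose estimation stopped before convergence, and -0.13 to 0.065 with 1 array left out, and the cause was not tested. Pathway genes called reached 1, Crim1 at -0.76, without pool 2 and with the block. Of 713 recomputed differences of named genes 35 changed sign, none of them at an unadjusted p under 0.05 in either fit. Averaging probe sets gave -0.025 for Tgfbr1, -0.053 for Bmp1, -0.043 for Smad1, -0.091 for Fstl1, -0.078 for Itgav and 0.067 for Smad4. Smad6 was at 0.022 with array weights. The range for Bmpr1b without a filter was 0.47 to 1.53 and did not change sign. Precision depended on pairing: the unpaired SEs of Bmp4, Gdf10 and Inhbb (0.59, 0.56 and 0.51) were 0.14, 0.098 and 0.26 with the block.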
